A study of Homo sapiens with 12 samples.

Results

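The measurements concern 10 genes that encode the kinases acting on RNA polymerase II, their cyclin partners and the main inhibitor of one of them. These are CDK7, CCNH, MNAT1, CDK9, CCNT1, CCNT2, CDK12, CDK13, CCNK and HEXIM1. Every probe annotated to only 1 of these genes, under its current or an older symbol, was taken, whatever its value. This gave 32 of the 54613 probe sets tested on the Affymetrix U133 Plus 2.0 array (AFFX) and 12 of the 33096 probes on the Applied Biosystems Human Genome Survey array (ABI), and all 10 genes were measured on both platforms. The cells were A2780, a human ovarian carcinoma line grown as an attached culture. They were left untreated (control) or exposed to 3 µM of a cell cycle inhibitor, whose name is not given, for 6 h (treated), and only attached cells were taken. RNA from 3 cultures per condition was pooled and the pool was split, so that the 3 arrays per condition on each platform, 12 arrays in all, are technical replicates of 1 RNA pool. The p-values below therefore measure the spread between aliquots and compare these control and treated pools, without the spread between cultures. The arrays measure RNA only, so a gene or protein called lower or higher below refers to its transcript signal.

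Transcription by RNA polymerase II is paced by phosphorylation of the long repeated tail of its largest subunit. CDK7 binds cyclin H (CCNH) and the assembly factor MAT1 (MNAT1) to form the kinase arm of the general factor TFIIH, which acts as the polymerase leaves the promoter. The same trimer, free of TFIIH, is the CDK-activating kinase that phosphorylates the cell cycle CDKs. CDK9 with cyclin T1 or T2 (CCNT1, CCNT2) forms P-TEFb, which releases paused polymerase into elongation. HEXIM1 holds P-TEFb inactive in a particle built on the 7SK RNA. CDK12 and CDK13 share cyclin K (CCNK) and act later, during elongation, and CDK12 is best known for keeping long DNA repair genes fully transcribed.

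The promoters of 4 members are shown because they contrast the P-TEFb inhibitor with the 3 subunits of a single complex, of which only the kinase CDK7 was called lower. Each is the 150 bases before the most upstream RefSeq start of the gene on GRCh38.p14, read 5′ to 3′ on the strand of the gene. Capitals mark matches on either strand to the TATA box TATAAA, the GC box GGGCGG, the CCAAT box, the E-box with the letters CACGTG and the ETS core, which reads CCGGAA. HEXIM1 lies at chr17:45148325-45148474 on the + strand, CDK7 at chr5:69234645-69234794 on the + strand, CCNH at chr5:87412931-87413080 on the - strand and MNAT1 at chr14:60734611-60734760 on the + strand.
HEXIM1: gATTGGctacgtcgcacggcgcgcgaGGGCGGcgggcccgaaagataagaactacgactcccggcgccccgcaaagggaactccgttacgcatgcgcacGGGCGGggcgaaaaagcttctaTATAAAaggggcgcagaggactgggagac
CDK7: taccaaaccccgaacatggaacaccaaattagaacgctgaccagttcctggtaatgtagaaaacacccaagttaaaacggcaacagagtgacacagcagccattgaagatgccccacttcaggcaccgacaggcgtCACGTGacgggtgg
CCNH: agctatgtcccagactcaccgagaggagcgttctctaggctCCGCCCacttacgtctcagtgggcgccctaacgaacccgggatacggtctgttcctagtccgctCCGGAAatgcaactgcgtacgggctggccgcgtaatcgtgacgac
MNAT1: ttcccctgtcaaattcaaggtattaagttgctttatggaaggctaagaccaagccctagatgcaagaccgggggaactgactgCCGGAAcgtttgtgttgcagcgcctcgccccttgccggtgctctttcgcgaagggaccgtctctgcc

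HEXIM1 was the only member with a TATA box in this window, from base -29 to -24 before its start, and 7.1% of the 27303 RefSeq promoters searched held one. CDK7 was the only member with the E-box, which 4.6% of promoters held. A GC box stood in 5 of the 10 members against 36.6% of promoters, the ETS core in 4 against 11.4%, and CCAAT in 2 against 24.4%. In CCNT1 its matches to the ETS core overlap on opposite strands, and in CCNK a pair of GC boxes overlap. These matches describe the letters of the windows, and no binding was measured.

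The median log2 signal of the AFFX arrays ranged from 5.37 to 5.47, and the median SD between arrays of a condition was 0.10. The median linear signal of the ABI arrays ranged from 1.06 to 1.19 and the median SD on the log2 scale was 0.28, so that AFFX resolved smaller differences. Arrays of a condition correlated at 0.994 to 0.997 on AFFX and at 0.969 to 0.973 on ABI. The median change over all probes was 0.12 on AFFX and 0.16 on ABI, in log2 units, and all changes below are given as normalised by the authors, without subtracting these medians. Of 8 epithelial and ovarian carcinoma markers, the 8 measured on AFFX had 5 below the median of all probe sets, CDH1 and EPCAM among them, and PAX8, at the 82.7th percentile, was the only one above the 75th. On ABI 4 of the 7 measured were below the median, PAX8 at the 38.6th percentile, with KRT18 called lower and MUC16 higher. Of 10 fibroblast and endothelial markers, 4 on AFFX and 5 on ABI were below the median, while the brightest of them, the collagen COL3A1, was at the 99.4th percentile on AFFX and the 96.4th on ABI. Leukocyte markers, measured for 9 of 10 genes on each platform, had a summed linear signal of 362 to 388 in control and 436 to 476 in treated arrays on AFFX, and of 4.88 to 6.54 and 4.15 to 5.66 on ABI. By limma, 0 of these 9 passed the threshold on either platform, while 3 on AFFX and 1 on ABI had an unadjusted p under 0.05.

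Probes of the members were called lower more often than probes of the arrays as a whole. The members, like the related gene lists below, were chosen with earlier results of these data known, so the shares that follow are descriptive. Limma was fitted across all probes of a platform, and a probe was called where it differed by 1.5-fold or more with a Benjamini-Hochberg adjusted p under 0.05. On AFFX, 13 of the 32 probe sets were lower after treatment, or 40.6%, where 8.95% of all probe sets were. On ABI, 6 of the 12 probes were lower, where 10.1% of all probes were, and 1 was higher, where 7.71% were. With only probes above the median signal fitted, 11 of 21 member probe sets were lower on AFFX, where 3966 of 27306 were. On ABI 7 of 12 member probes then were, where 3270 of 16548 probes were. On AFFX the count of member probe sets called higher was 0, where 1.75% of all probe sets were. On adjusted p alone 5 member probe sets were higher, where 23.3% of all probe sets were. At an unadjusted p under 0.05, 7 of the 32 were higher. The share of all probe sets at that threshold was not counted, and it is at least the 23.3% that passed on adjusted p. All treated arrays lay below all control arrays on 15 AFFX probe sets of members and above them on 6, where 17.5% and 34% of all probe sets did, and on 8 and 1 ABI probes, where 17.1% and 23.8% did. Probe sets called lower belonged to 7 genes on AFFX and to 6 of these genes on ABI. On neither platform was a probe of CCNH, MNAT1 or CCNK called lower. The median change over the members' probes was -0.32 on AFFX and -0.91 on ABI.

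**Figure D1:**
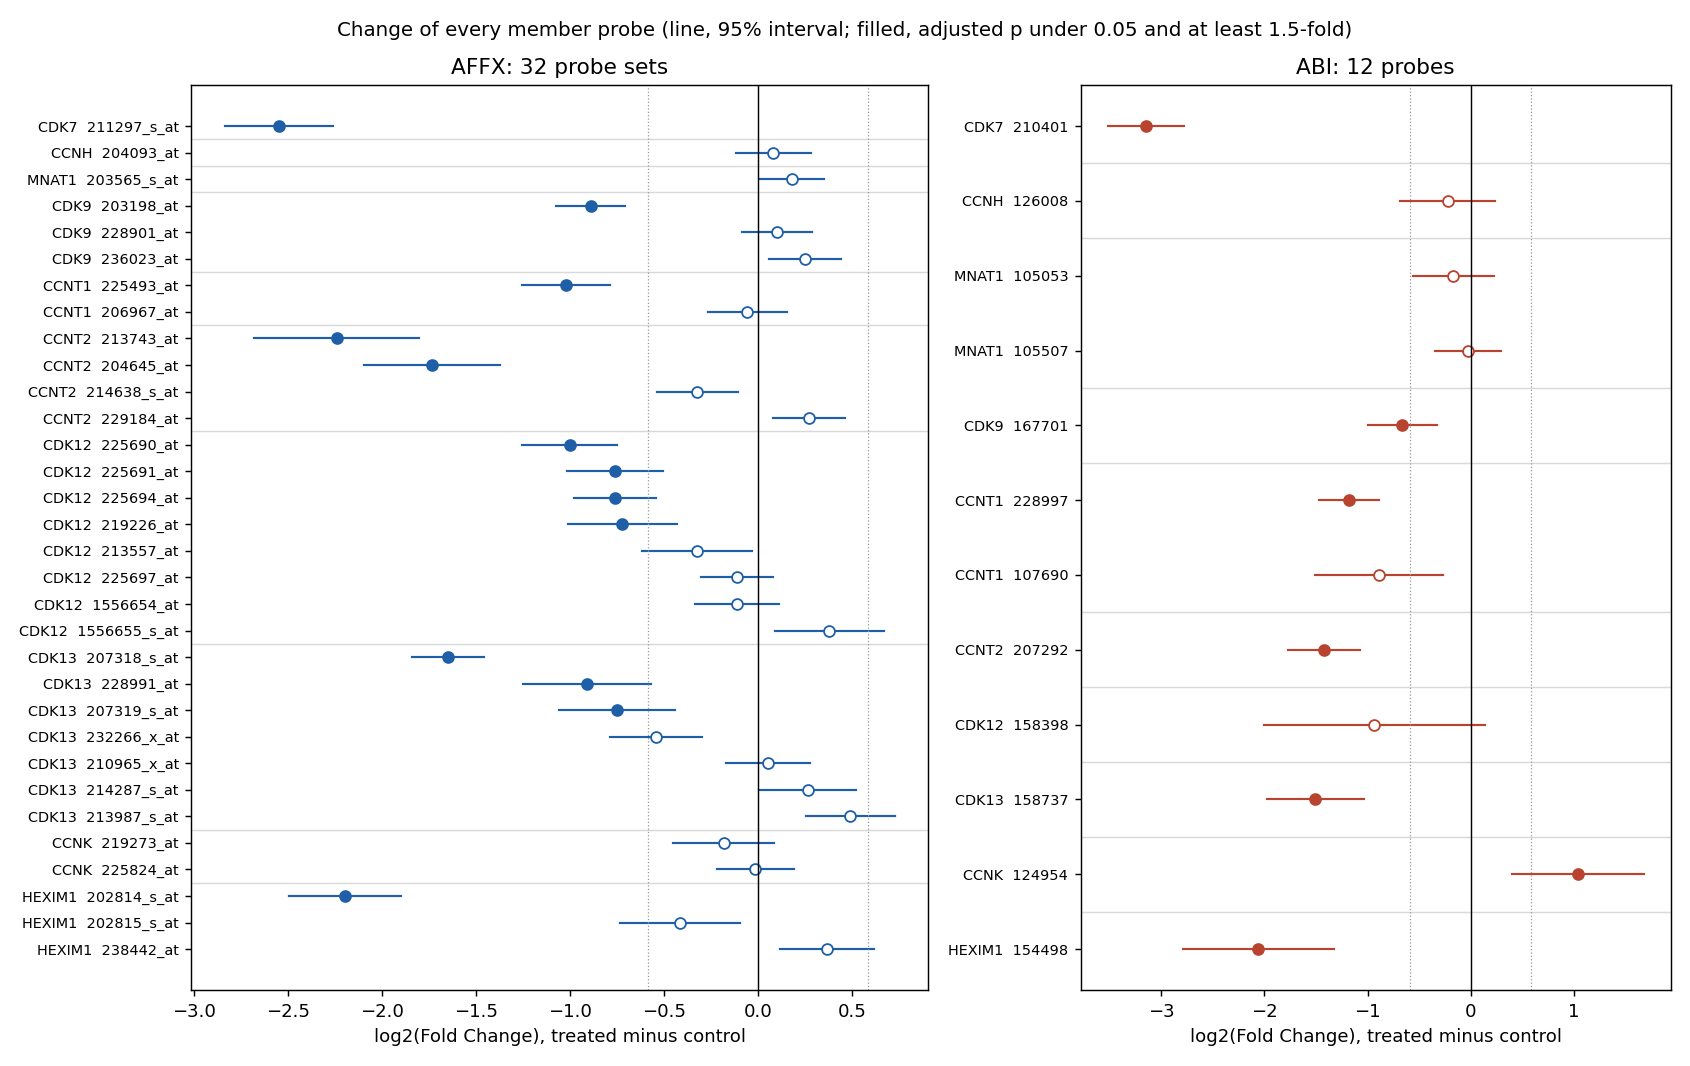
Change of each member probe, as log2(Fold Change) of treated minus control with its 95% interval, for the 32 AFFX probe sets and the 12 ABI probes. Filled points are called at an adjusted p under 0.05 and at least 1.5-fold, and dotted lines mark 1.5-fold. Filled points lie to the left on AFFX, with open points of the same genes between -0.54 and 0.49. CCNK is the only filled point to the right on ABI.

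The CDK-activating trimer split, with its kinase lower and its partners not called. The AFFX probe set for CDK7, 211297_s_at, read 8.50, 8.28 and 8.24 (log2 signal) on the control arrays and 5.50, 5.87 and 6.02 on the treated arrays. All treated arrays lay far below all control arrays. The change was -2.55 ± 0.13 (SE, n = 3 arrays per condition), which is 5.84-fold, with a limma adjusted p of 1.2e-07. ABI probe 210401 read 4.53, 4.48 and 4.48 in control and 1.42, 1.51 and 1.12 in treated arrays, again with no overlap. The ABI change was -3.15 ± 0.15, or 8.86-fold, with an adjusted p of 0.00053. Among genes, by 1 probe each, CDK7 ranked 132nd from the lowest of 19777 on AFFX and 168th of 17192 on ABI.

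Cyclin H, the cyclin that CDK7 needs for activity, read 9.07, 8.94 and 8.88 in control and 9.06, 9.13 and 8.94 in treated AFFX arrays. These ranges overlapped, and the change of 0.08 had a 95% interval from -0.12 to 0.28 (adjusted p 0.49). On ABI its probe changed by -0.22, with an interval from -0.68 to 0.24, and the arrays overlapped too. MNAT1, which stabilises the pair, read 8.68, 8.65 and 8.66 in control and 8.83, 8.88 and 8.82 in treated AFFX arrays. The treated arrays were above the control arrays by a small margin, 0.18 with an interval from 0.01 to 0.35, which missed the threshold (adjusted p 0.088). Its ABI probes changed by -0.17 (interval -0.56 to 0.22) and -0.03 (interval -0.35 to 0.29). The AFFX intervals of CCNH and MNAT1 thus lie within 1.5-fold in either direction, while the ABI intervals are wider. Their ABI changes became -0.83 for CCNH and -0.77 and -0.63 for MNAT1, all called lower, when arrays were centred on ribosomal protein genes, a choice that moved the median of all ABI probes from 0.16 to -0.45.

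**Figure D2:**
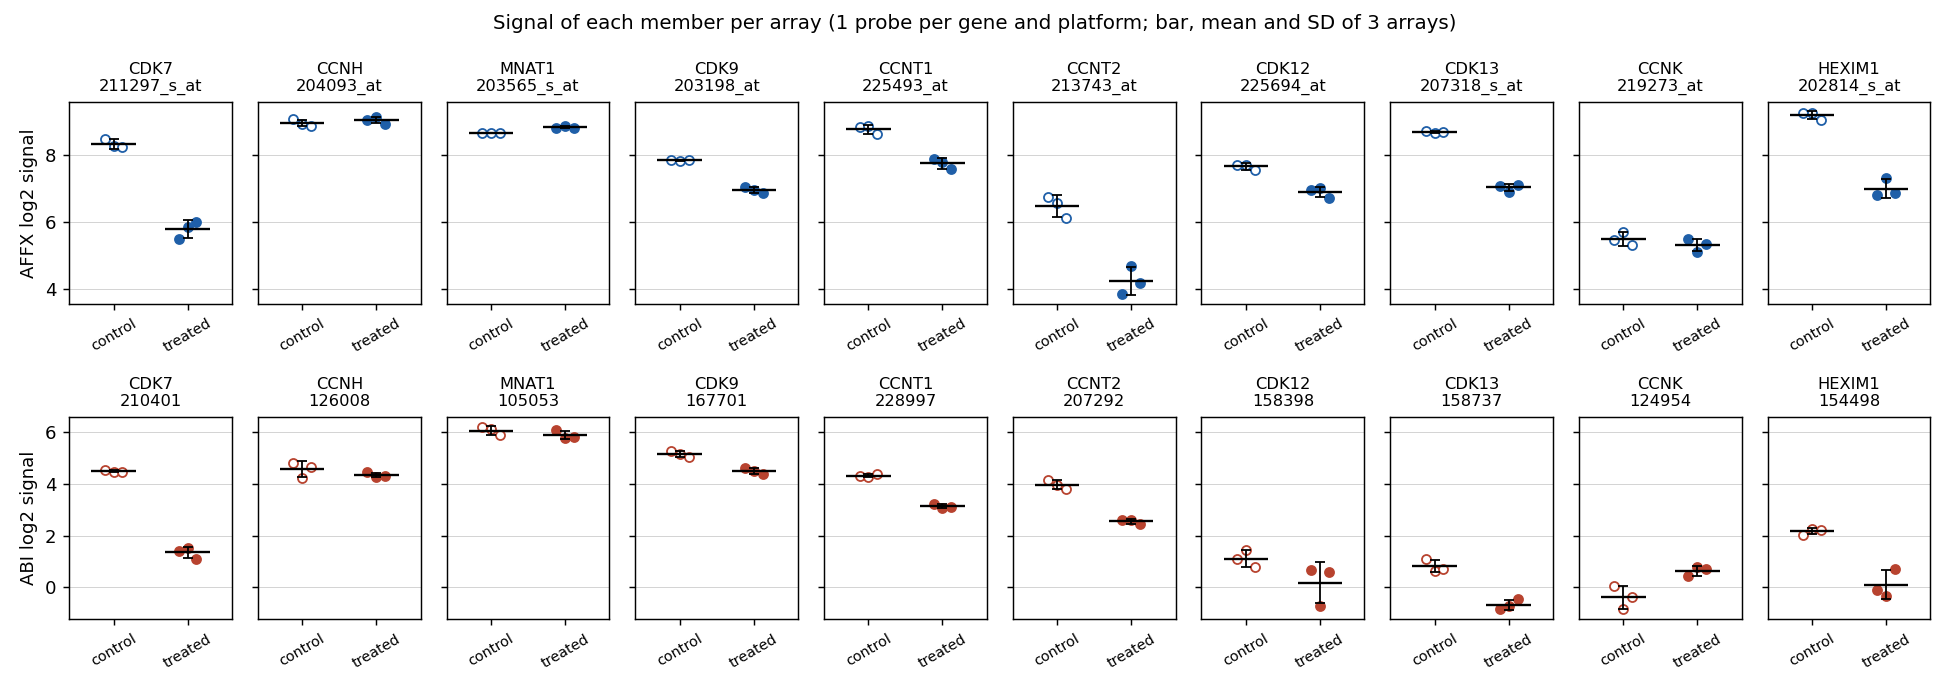
Log2 signal on each array for 1 probe per member on AFFX (top) and ABI (bottom), open for control and filled for treated, with bars for the mean and SD of 3 arrays. Treated arrays of CDK7, CDK9, CCNT1, CCNT2, CDK12, CDK13 and HEXIM1 lie below their control arrays on both platforms, while those of CCNH overlap on both. The probe shown is the one that an equal-variance test gave the lowest p, and levels are not comparable between probes.

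Each subunit of P-TEFb had a probe called lower on both platforms. On AFFX these were 1 of 3 probe sets for CDK9, 1 of 2 for CCNT1 and 2 of 4 for CCNT2. CDK9 on probe set 203198_at read 7.86, 7.84 and 7.85 in control and 7.05, 6.98 and 6.86 in treated arrays. The control arrays were almost identical and every treated array was lower, by 0.89 ± 0.083 or 1.85-fold (adjusted p 1.2e-05). ABI probe 167701 for CDK9 read 5.27, 5.15 and 5.05 in control and 4.61, 4.50 and 4.37 in treated arrays, a change of -0.66 ± 0.13 with an adjusted p of 0.024. That ABI call was lost whichever array was left out, with changes from -0.72 to -0.60 and adjusted p from 0.0501 without treated array 1 to 0.0819 without control array 2.

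Cyclin T1, the partner of most P-TEFb, read 8.84, 8.86 and 8.62 in control and 7.90, 7.80 and 7.58 in treated arrays on probe set 225493_at. It fell by 1.02 ± 0.11, or 2.03-fold, with no overlap (adjusted p 2.8e-05). On ABI probe 228997 the values were 4.32, 4.26 and 4.38 against 3.23, 3.09 and 3.11, a change of -1.18 ± 0.12 (adjusted p 0.0027). On these probes cyclin T1 was thus about as much lower on one platform as on the other. The other AFFX set for cyclin T1, 206967_at, with a control mean of 7.06, was not called. It changed by -0.06, with an interval from -0.27 to 0.15, and its arrays overlapped. The other ABI probe, 107690, changed by -0.89 with an adjusted p of 0.057, and without treated array 1 it changed by -1.09 and was called at an adjusted p of 0.046.

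Cyclin T2, the alternative cyclin of CDK9, was the P-TEFb subunit with the largest measured change. Probe set 213743_at read 6.74, 6.58 and 6.13 in control and 3.87, 4.68 and 4.19 in treated arrays, a change of -2.24 ± 0.20 or 4.73-fold (adjusted p 7.3e-06). Probe set 204645_at read 7.51, 7.30 and 6.77 against 5.59, 5.49 and 5.29, a change of -1.73 ± 0.16. The ABI probe 207292 read 4.15, 3.97 and 3.82 against 2.59, 2.62 and 2.46, which is -1.42 ± 0.14 or 2.68-fold (adjusted p 0.0026). No treated array reached a control array on any of these 3 probes.

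HEXIM1, the inhibitor of P-TEFb, was also called lower on both platforms, on AFFX by 1 of its 3 probe sets. Probe set 202814_s_at read 9.27, 9.27 and 9.06 in control and 6.80, 7.33 and 6.87 in treated arrays. The change was -2.20 ± 0.13, or 4.58-fold, with an adjusted p of 4.1e-07. ABI probe 154498 read 2.04, 2.25 and 2.21 in control and -0.09, -0.32 and 0.73 in treated arrays, a change of -2.06 ± 0.29 or 4.17-fold (adjusted p 0.0087). The treated ABI arrays were spread more widely than the control arrays, with an SD of 0.55 against 0.11, and all lay below them. In rank from the lowest change, HEXIM1 was 257th of 19777 genes on AFFX and 652nd of 17192 on ABI.

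The elongation kinases CDK12 and CDK13 were lower on AFFX, while their shared cyclin was not. For CDK12, 4 of 8 probe sets were called, the furthest down being 225690_at, which read 7.33, 7.54 and 7.21 in control and 6.54, 6.20 and 6.32 in treated arrays and fell by 1.00 ± 0.11. The least was 219226_at, with a change of -0.72 ± 0.13. The called sets 225691_at and 225694_at lay between them, at -0.76 each. The only ABI probe for CDK12 read 1.11, 1.44 and 0.77 in control and 0.68, -0.74 and 0.58 in treated arrays. The treated arrays did not overlap the control arrays, but with the second of them far below the others the change of -0.93 had an interval from -2.00 to 0.13 and an adjusted p of 0.19.

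CDK13, the closest relative of CDK12, had 3 of 7 probe sets called. Probe set 207318_s_at read 8.72, 8.66 and 8.68 in control and 7.08, 6.92 and 7.12 in treated arrays, a change of -1.65 ± 0.086 or 3.14-fold (adjusted p 1.3e-07). Sets 228991_at and 207319_s_at changed by -0.91 ± 0.15 and -0.75 ± 0.14. On ABI the CDK13 probe read 1.11, 0.65 and 0.72 in control and -0.84, -0.74 and -0.45 in treated arrays, a change of -1.50 ± 0.19 (adjusted p 0.0058). It was dim, with means of 0.83 in control and -0.68 in treated arrays. The medians over ABI probes of leukocyte markers were -1.01 and -1.20, and the part of low signal was not tested. On 207318_s_at and on the ABI probe every treated array lay below every control array, which did not hold for all CDK13 sets on AFFX.

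CCNK gave different answers on the platforms. Probe set 225824_at read 9.86, 9.62 and 9.74 in control and 9.73, 9.81 and 9.63 in treated arrays, a change of -0.01 with an interval from -0.22 to 0.19. The other AFFX set, 219273_at, changed by -0.18 with an interval from -0.45 to 0.09, and both overlapped. ABI probe 124954 read 0.04, -0.84 and -0.36 in control and 0.43, 0.81 and 0.71 in treated arrays, a change of 1.04 ± 0.26 that was called higher at an adjusted p of 0.042. That call was lost without control array 2 or 3 or treated array 1, 2 or 3, with changes of 0.81, 1.05, 1.14, 0.96 and 1.00 and adjusted p of 0.0908, 0.107, 0.0747, 0.117 and 0.112, and it was also lost with arrays centred on ribosomal protein genes (0.43, adjusted p 0.29). Beside these values, the control mean of this probe was -0.38, and the median over 11 ABI probes of leukocyte markers was -1.01. The part of low signal in this result was not tested.

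Probe sets of the same gene often moved apart on AFFX. Each probe set was compared, array by array, with the brightest set of its gene by mean over control and treated arrays. The differences were tested between conditions. Of 22 such pairs in 7 members, 14 differed (63.6%), where 17.1% of 21314 pairs over all genes did, and they lay in 6 genes, all of these but CCNK. In HEXIM1, set 238442_at read 5.61, 5.60 and 5.75 in control and 6.02, 5.80 and 6.24 in treated arrays, opposite in sign to the fall of 202814_s_at, and the difference of the changes was 2.56 ± 0.22 (adjusted p 1.6e-05). Set 202815_s_at, at -0.42, also differed from it, by 1.78 ± 0.24. In CCNT2, sets 229184_at (0.27) and 214638_s_at (-0.32) differed from 204645_at by 2.01 ± 0.19 and 1.41 ± 0.18. The spread within HEXIM1 and CCNT2 was therefore about as wide as the change of their called sets.

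The same was seen in the kinases. CDK9 sets 228901_at (0.10) and 236023_at (0.25) differed from 203198_at by 0.99 ± 0.11 and 1.14 ± 0.11. The CCNT1 set 206967_at (-0.06) differed from 225493_at by 0.96 ± 0.16. In CDK12, sets 1556654_at (-0.11), 225697_at (-0.11) and 1556655_s_at (0.38) differed from 225691_at by 0.65, 0.65 and 1.14, while 213557_at (-0.32) did not pass, with a difference of 0.44 and an interval from -0.05 to 0.93. Among the 4 called CDK12 sets no pair tested passed, with intervals of the difference from 225691_at for 225690_at, 225694_at and 219226_at within -0.53 to 0.41. In CDK13 the brightest set, 232266_x_at, changed by -0.54 and was not called. In control arrays alone 207318_s_at was the brighter of these, with a mean of 8.69 against 8.54. Set 207318_s_at was further down than 232266_x_at, by 1.11 ± 0.14, while 210965_x_at (0.05), 214287_s_at (0.27) and 213987_s_at (0.49) were above 232266_x_at by 0.60, 0.81 and 1.03. On 213987_s_at all treated arrays lay above all control arrays (limma adjusted p 0.0049), and only the 1.5-fold limit was missed. The suffix _x_at marks sets whose probes, by the design of the array, may also bind other transcripts. The small positive changes in CCNH, MNAT1, CDK9 and CCNT2, and in 210965_x_at and 214287_s_at of CDK13, turned negative with arrays centred on ribosomal protein genes or on hybridisation controls, and those of 1556655_s_at and 238442_at turned negative with the latter. The change of 213987_s_at stayed positive with either centring. These centrings moved the median of all AFFX probe sets from 0.12 to -0.18 and -0.30. Some sets that differed were dim. Control means were 3.45 for 228901_at, 3.59 for 1556655_s_at, 4.35 for 210965_x_at, 4.51 for 214287_s_at, 4.53 for 229184_at and 4.60 for 1556654_at. The median over AFFX probe sets of leukocyte markers in control was 4.39. The other sets that differed had control means from 4.86 (214638_s_at) to 8.69 (207318_s_at). Which exons each set covers was not analysed here, and the parts of probe position and low signal in these differences were not tested.

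By 1 probe per gene and platform, 6 of the 10 members were called lower on both platforms, where 10.5% of the 16186 genes on both were. These were CDK7, CDK9, CCNT1, CCNT2, CDK13 and HEXIM1. With the brightest probe of each gene in place of the one with the lowest p the count was 5, where 9.09% of genes were. The gene lost was CDK13, whose brightest set on AFFX was not called. Brightness was the mean over control and treated arrays, so a set that fell after treatment counted as dimmer. The difference between the changes, ABI minus AFFX, passed for 1 member, where 15.1% of genes did. That member was CCNK, at 1.22 ± 0.30 (adjusted p 0.023). With the brightest probes CCNK (1.05) and CDK13 (-0.96) passed, where 11.7% of genes did. Leaving out AFFX control array 1, AFFX control array 2 or AFFX treated array 2 ended this call, with adjusted p of 0.0505, 0.0626 and 0.0610, while without AFFX treated array 1 CDK7 passed as well and without AFFX treated array 2 CCNT2 did. For CDK7 the ABI change was lower by 0.60 and for CCNT2 it was higher by 0.82, with adjusted p of 0.086 and 0.0997. For CDK9, CCNT1, CDK12, CDK13 and HEXIM1 the differences lay between -0.17 and 0.23, with adjusted p of 0.30 or above. For CCNH and MNAT1 they were -0.30 and -0.35, with adjusted p of 0.35 and 0.17.

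**Figure D3:**
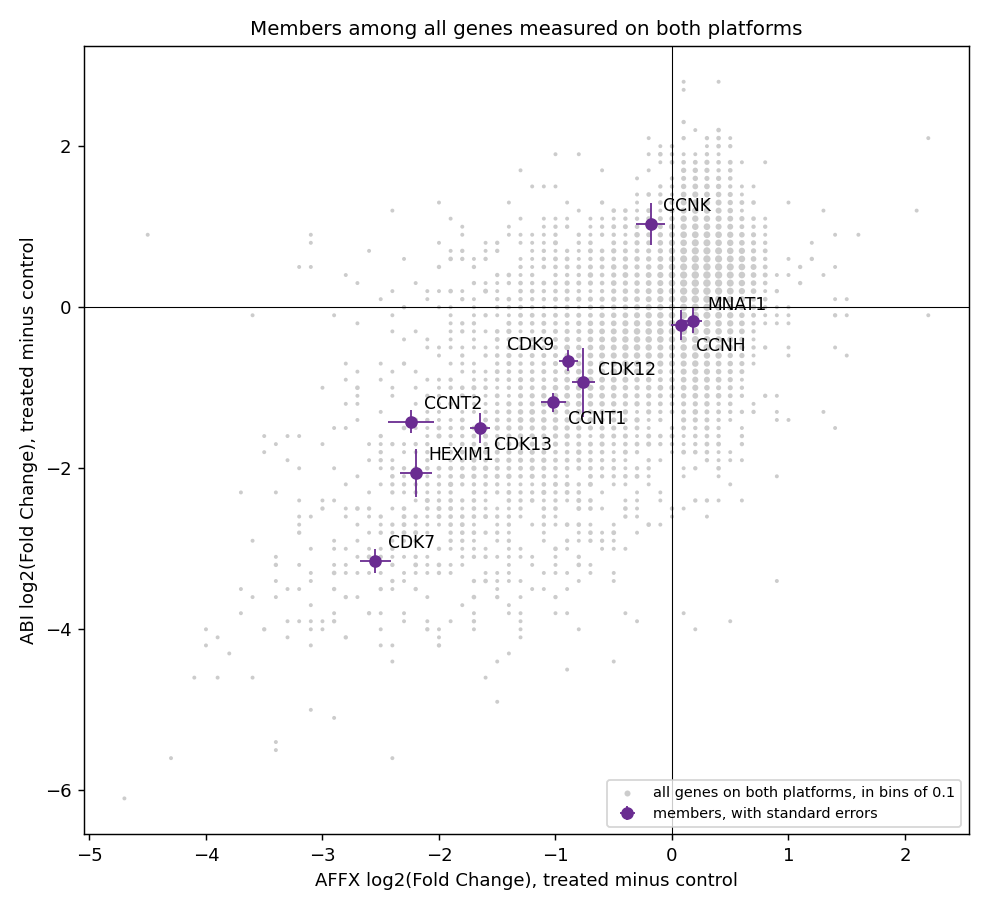
Change of each member on AFFX (x axis) and ABI (y axis), as log2(Fold Change) of treated minus control with standard errors, over all 16186 genes on both platforms in grey, binned at 0.1. Of the members, 7 lie at negative values on both axes, CCNH and MNAT1 lie near 0, and CCNK lies above 0 on ABI only.

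Most of the other listed genes for proteins that hold or release P-TEFb were lower in transcript signal as well. Of the 4 genes of this list, 3 were called lower on AFFX and the same 3 on ABI, where 14.2% of all genes were on AFFX and 14.8% on ABI. MEPCE, the enzyme that caps the 7SK RNA, changed by -1.69 ± 0.10 on AFFX and -3.44 ± 0.30 on ABI. HEXIM2, the relative of HEXIM1, changed by -1.09 ± 0.11 and -2.45 ± 0.17, and JMJD6, which takes part in releasing P-TEFb at enhancers, by -1.93 ± 0.094 and -2.78 ± 0.16. The ABI change was the lower one for each, with adjusted p for the difference of 0.0063, 0.0020 and 0.011. LARP7, which binds the tail of the 7SK RNA, was not called, at -0.40 on both platforms by the probes of lowest p and at -0.09 and 0.05 by the brightest.

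The bromodomain proteins and the super elongation complex, which bring P-TEFb to chromatin, changed in some members. On AFFX 2 of 11 measured genes were lower and on ABI 3 of 11, with 1 higher, against shares over all genes of 14.2% lower and 2.49% higher (AFFX) and 14.8% lower and 6.31% higher (ABI). BRD2 changed by -1.71 ± 0.086 and -2.10 ± 0.16, and the scaffold AFF1 by -0.72 ± 0.11 and -0.87 ± 0.16. The genes called on ABI only were EAF2 (-0.83) and ELL (0.64). Among the pausing factors DSIF and NELF, NELFA was lower on ABI by 1.24 ± 0.16 and was not measured on AFFX, and the other 3 genes measured on ABI, like the 4 measured on AFFX, were not called. Of the TFIIH core, which carries the CDK7 trimer, 1 of 6 measured genes was higher and 0 lower on AFFX. On ABI 2 of 7 were lower and 0 higher, against the shares over all genes given above. GTF2H5 was higher on AFFX (0.73 ± 0.095) and at 0.49 on ABI, while GTF2H1 (-0.82 ± 0.13) and GTF2H2 (-1.12) were lower on ABI. On AFFX GTF2H1 was not called, at 0.20 by the probe set of lowest p and -0.32 by the brightest, and GTF2H2 was not measured. GTF2H2 has near-identical copies in the genome and its signal is uncertain in origin.

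Another kinase of the transcription machinery sits in Mediator. Of its module, 3 of 7 genes were lower on AFFX and 2 of 6 on ABI, where 14.2% and 14.8% of all genes were. CDK8 fell by 1.00 ± 0.095 on AFFX and by 1.66 ± 0.17 on ABI, and MED13, which tethers the module, by -1.36 ± 0.096 and -1.75 ± 0.25. MED13L was lower on AFFX (-1.21) and was not measured on ABI, and neither the alternative kinase CDK19 nor the cyclin CCNC, at 0.12 and 0.29, was called. As with CDK7 and cyclin H, CDK8 was called lower on both platforms and its cyclin on neither. Of the other CDKs and cyclins of transcription and splicing, CCNL1, a splicing cyclin, changed by -1.24 ± 0.082 and -1.58 ± 0.17, and CDK10 was higher on ABI only (0.76).

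The enzymes that remove the phosphates, and their partners, were mixed. The list of the polymerase large subunit and the tail phosphatases held 9 genes, all measured on each platform. AFFX called 3 of these lower, against 14.2% of all genes, and 1 higher, against 2.49%. ABI called 4 of them lower, against 14.8% of all genes, and 0 higher, against 6.31%. RPAP2 changed by -1.06 ± 0.086 and -1.65 ± 0.11, CTDSP1 by -0.73 ± 0.094 and -1.37 ± 0.13, and CTDSP2 by -0.64 ± 0.085 and -1.08 ± 0.13. CTDP1 was called on ABI only (-2.90 against -0.54 on AFFX) and RPRD1A on AFFX only (0.95 against -0.17 on ABI), a call lost with its brightest set (0.25). The large subunit POLR2A itself was not called, at 0.28 on AFFX, or -0.27 on its brightest set, and -0.01 on ABI. Of the DNA repair genes known to need CDK12 with cyclin K, 1 of 3 measured genes was lower on ABI, where 14.8% of all genes were. It was BRCA1, which changed by -0.71 ± 0.12 on ABI and by -0.40 ± 0.089 on AFFX.

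Among the cell cycle CDKs and cyclins, 4 of 12 genes were lower on both platforms, where 10.5% of all genes were. With the brightest probes 3 were, where 9.09% of all genes were, CCNA2 on AFFX then being at -0.47 and not called. CCNE2, a cyclin of S phase entry, changed by -1.04 ± 0.086 and -1.40 ± 0.12, and CCNE1 by -0.97 ± 0.089 and -1.63 ± 0.17. CCNA2 fell by 0.79 ± 0.080 on AFFX and by 1.00 ± 0.12 on ABI, and the mitotic cyclin CCNB1 by -0.77 ± 0.11 and -1.19 ± 0.14. CCND2 (1.12) and CCNB2 (0.59) were called higher on AFFX only, and these calls were lost with their brightest sets, at -0.02 and -0.08. The kinases CDK1, CDK2, CDK4 and CDK6 were not called on either platform. Genes named here as called on a single platform, other than NELFA, GTF2H5, GTF2H1 and BRCA1, were named after their values were seen, as were LARP7, CCNC, POLR2A and the uncalled kinases.

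**Figure D4:**
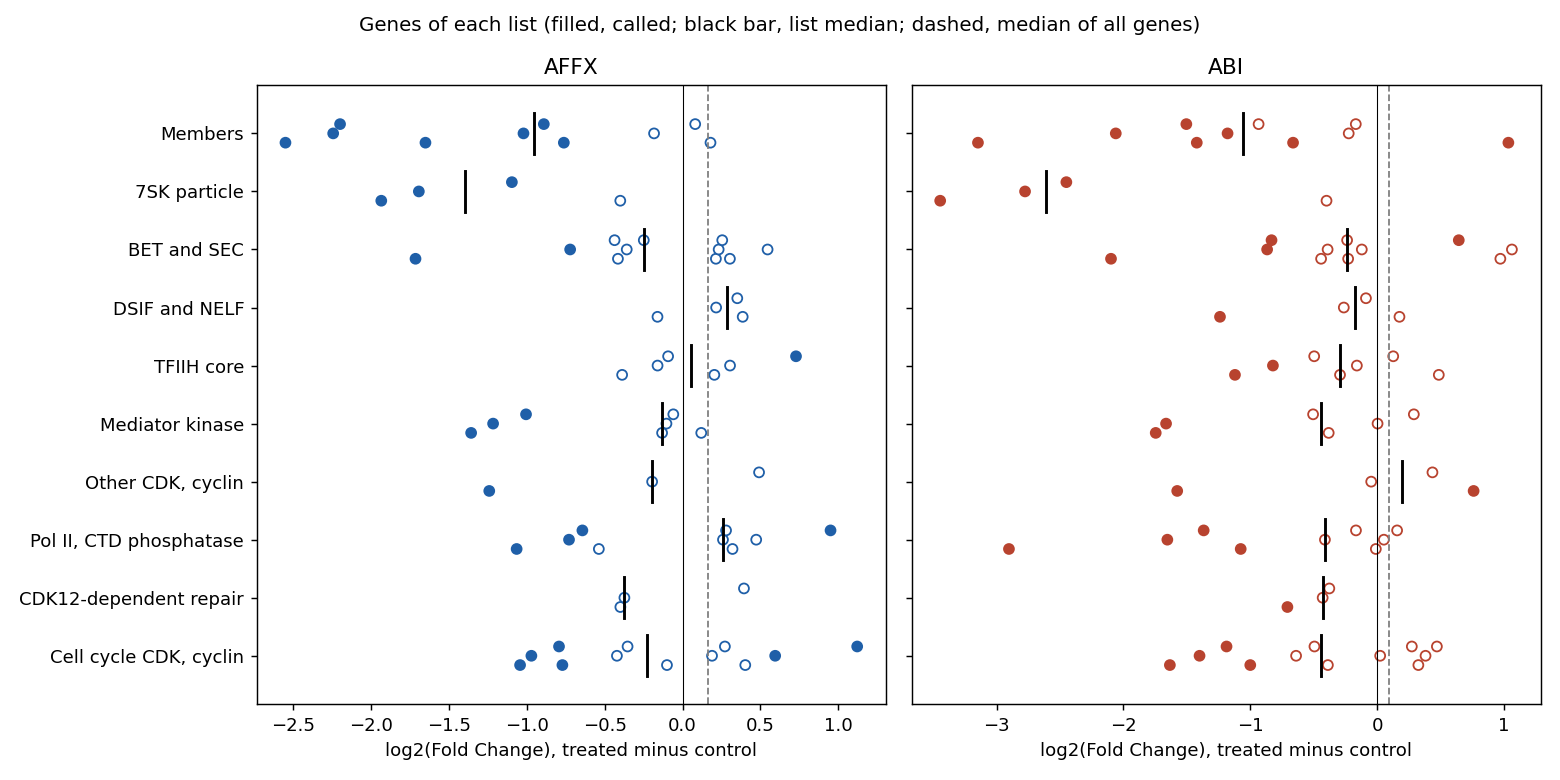
Change of each measured gene in the members and 9 related gene lists, as log2(Fold Change) of treated minus control on AFFX (left) and ABI (right), 1 probe per gene. Filled points are called, black bars mark the list median and the dashed line the median of all genes. The 7SK particle and the members have medians of -1.39 and -0.95 on AFFX and -2.61 and -1.06 on ABI, against 0.16 and 0.09 for all genes.

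The genes whose pair of changes lay nearest to that of CDK7, by distance over the pair of platforms among 16186 genes, were E2F6, DCP1B and FILIP1L. E2F6 changed by -2.60 on AFFX and -3.14 on ABI, DCP1B by -2.53 and -3.07, and FILIP1L by -2.60 and -3.06. In bulk RNA a smaller share of cells holding a transcript and less of it per cell cannot be told apart.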

How the data were processed

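RNA from untreated and treated A2780 cells was measured on 12 arrays, 3 aliquots of 1 pool per condition and platform, and groups came from the sample titles. The deposited AFFX values are log2 signals that the authors computed with RMA (version not given in the sources used here) and quantile normalization. The deposited ABI values are chemiluminescence intensity after global median normalization by the authors. Their scale is not stated beside the values and was taken as linear from their range (all above 0, array medians near 1), and log2 was then taken here with no pseudocount, so that every ABI change rests on this reading. Such normalization removes any change shared by most transcripts. No counts or depth exist for arrays, and their number limits the precision.

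Probes were named from GEO's platform annotation. On AFFX 41091 probe sets had 1 gene symbol, 1801 several and 11721 none, with 62 control sets set aside, and on ABI the numbers were 21089, 563 and 11444. No probe of several genes named a member. Each platform was fitted by limma 3.58.1 in R 4.3.3, treated minus control, with Benjamini-Hochberg adjustment over all probes. Where 1 probe per gene was needed, the choice of the study's methods was kept, which is the lowest p of an equal-variance test. The alternative was the brightest probe, with the highest mean over all control and treated arrays of the platform. The platform difference was an interaction term over 16186 genes. Pairs of probe sets were tested on their differences per array. Promoter windows came from the RefSeq table of GRCh38.p14, which held all 10 members, and both strands were searched.

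The members and all lists were chosen with earlier results of these data known. All members were named, and from each list up to 4 genes called alike on both platforms by largest AFFX change, or up to 2 called on 1 platform where there were none. On simulated data of the same size, 89% of 2-fold and 99% of 4-fold changes were recovered on AFFX, and 8% and 47% on ABI. The simulation changed only 100 probes at each fold, whereas 3347 ABI probes were called lower and 2553 higher in the data. Its adjusted threshold was therefore stricter, and these shares do not give the power of the real comparison. A miss on ABI is still not read as absence of change. The alternatives were the replicate block, each array left out, other fold limits, other scalings, a filter on dim probes, limma-trend, an equal-variance test and an ABI pseudocount of 0.5.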

Additional observations from a re-analysis of the deposited data

Results flagged for a closer look

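The change of CCNK, the cyclin of CDK12 and CDK13, differed between the platforms by 1.22 in log2 units (ABI minus AFFX), by the interaction term of the fit over both platforms. On ABI its only probe changed by 1.04 from a control mean of -0.38, and on AFFX its sets changed by -0.18 and -0.01. The set used for the difference was 219273_at, and with the brighter 225824_at it was 1.05 (adjusted p 0.036). The difference did not pass with the replicate number as a block (adjusted p 0.087) or without AFFX control array 1, AFFX control array 2 or AFFX treated array 2 (adjusted p 0.0505, 0.0626 and 0.0610).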

How the results depend on the processing

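Of 452 values of single probes under alternative settings, 396 kept their direction and their side of the threshold, 19 passed it newly, 15 no longer passed, 22 uncalled values moved and 0 called values turned. The 15 were the ABI calls of CCNK and CDK9. Of the 32 AFFX member probe sets 7, in place of 13, were lower at 2-fold or more, and with no fold limit 5 were higher. With no fold limit 23.3% of all AFFX probe sets were higher, and the share lower at 2-fold or more was not counted. Leaving out single arrays gave 13 to 14 lower and 0 to 0 higher on AFFX, 5 to 6 lower and 0 to 1 higher on ABI, 12 to 14 unlike pairs of probe sets and 0 to 2 platform differences. Centring on ribosomal protein genes, whose median was higher by 0.30 on AFFX and 0.61 on ABI in treated arrays, called 11 of the 12 ABI member probes lower. It took the split over all probes from 958 higher and 4888 lower to 112 and 8122 on AFFX and from 2553 and 3347 to 208 and 7838 on ABI. Centring on AFFX hybridisation controls, which were 0.42 higher in treated arrays, gave 80 and 10378. The ABI count of member probes higher was 0 under that ribosomal centring, the equal-variance test and the replicate block. Platform differences numbered 2 with the brightest probes, 2 with ABI quantile normalization, 3 with the ABI pseudocount, 5 with ribosomal centring and 3 with hybridisation control centring. Unlike pairs numbered 8 at 2-fold or more, and 7 of 11 among bright sets. For these counts of platform differences and unlike pairs, shares over all genes or pairs were not counted, other than for the brightest probes. Arrays with the same replicate number share only that number, with correlations of their deviations of 0.075, 0.0040 and 0.33 on AFFX and 0.034, -0.0067 and 0.072 on ABI, and 1 of 3 and 2 of 3 control arrays correlating best with their own number. With the replicate number as a block, 13 AFFX probe sets and 5 ABI probes of members were lower, 14 pairs differed and 0 platform differences passed, and the split over all ABI probes was 347 higher and 1889 lower. The cause of these shifts was not tested.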
